A study of Mus musculus with 4 samples.

Results

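The nuclear receptor PPARγ and 9 genes of fatty acid uptake, binding, storage and oxidation that are known PPAR targets were followed in bone marrow-derived macrophages (BMDMs) cocultured with MC38 cells. The 10 genes were listed by name for their roles, not for their values, and all 10 were found among the 21878 genes of the count table. Their symbols were Pparg, Cd36, Lpl, Angptl4, Fabp4, Fabp5, Acsl1, Plin2, Cpt1a and Pdk4. The study asked how less Act1 (encoded by Traf3ip2), an adaptor of NF-κB signaling, changes macrophages that meet colorectal cancer cells. There were 2 libraries from anti-Act1 mice, a line with macrophage-specific knockdown of Act1, and 2 from WT mice, which the methods describe as biological replicates. All mice were C57BL/6 and 8 weeks old by the labels. All BMDMs were grown from bone marrow with M-CSF and cocultured for 48 h by the labels with MC38 cells, a mouse colon cancer line, which the methods place in a porous insert above the macrophages. The methods give an age range that starts at 8 weeks, and for the sequenced macrophages a figure legend of the study gives a shorter coculture than the labels, so the length of the coculture is uncertain. The promoter that drives the knockdown and the number of animals behind each library are not given in the sources used here.

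PPARγ is a nuclear receptor that binds fatty acids and their derivatives, pairs with an RXR receptor, and switches on genes of lipid uptake and storage. Macrophages take up fatty acids through CD36 and through lipoprotein lipase (LPL), carry them on fatty acid-binding proteins, and activate them with acyl-CoA synthetases. They then store them in lipid droplets coated by perilipins or burn them in mitochondria. PPARγ is best known in macrophages for its part in foam cells, in alveolar macrophages and in alternative activation.

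Pparg and Lpl were lower in the anti-Act1 libraries and Acsl1 was higher, while the lipid droplet gene Plin2, the fatty acid carrier gene Fabp5 and the uptake receptor Cd36 did not pass the test. Pparg was 1.75-fold lower, Lpl 2.11-fold lower and Acsl1 1.36-fold higher in anti-Act1 macrophages. Fabp4 passed the test with a small fall, 1.12-fold. Of the 10 genes, 9 had enough counts to be tested. Of these 9, 1 was higher and 3 were lower at an adjusted p under 0.05, beside 10.9% of all 12494 genes tested that were higher and 9.76% that were lower. Their log2 fold changes had a median of −0.060, the value of Fabp5, beside −0.0046 over all genes tested. The median was −0.11 when WT replicate 2 was left out. The test was edgeR's two-sided quasi-likelihood test on the counts with Benjamini-Hochberg adjustment over all genes tested, and log2 fold changes are anti-Act1 over WT. An exact permutation test of 2 libraries against 2 cannot go below p = 0.333, so p-values come from the model across genes. In these bulk samples, fewer cells of a type and less RNA per cell cannot be told apart.

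Total counts were 64199075 and 75062945 in the WT libraries and 61926229 and 55435063 in the anti-Act1 libraries, so both WT libraries were deeper. CPM are library-size-scaled counts after TMM normalization. A count of 3, the limit that a count of 0 allows, corresponded to 0.0395 to 0.0549 CPM and covers counting error only. Before the lipid genes, the labels were checked on Traf3ip2, which was at 6.98 and 7.54 CPM in the WT libraries and at 9.63 and 7.84 CPM in the anti-Act1 libraries (log2 fold change 0.27, adjusted p = 0.117 by edgeR). When anti-Act1 replicate 2 was left out the value was 0.41 and passed the threshold, and when anti-Act1 replicate 1 was left out it was 0.11 and did not. The transcript that the knockdown targets thus showed no fall in these counts, and every direction given here rests on the labels. The study also examined the genotype and Act1 expression of its mouse lines by other assays, which were not analysed here. The Y-linked gene Ddx3y was at 88.9 and 97.0 CPM in the WT libraries and at 0 counts in both anti-Act1 libraries. A difference in sex of the mice therefore cannot be told apart from the genotype label.

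The 250 bases before the annotated start are shown for Cd36 and Plin2, whose libraries overlapped between the groups, and for the most upstream start of Pparg, which fell. They were searched on both strands for the PPAR response element, a direct repeat of 2 AGGTCA half-sites with 1 free base between them, with at most 3 mismatches in its 12 fixed letters. The RefSeq table (GRCm38.p6) held 9 windows for 6 of the 10 genes (Pparg, Cd36, Acsl1, Plin2, Cpt1a and Pdk4). The repeat was found in 2 of these 9 windows, those of Cd36 and Plin2, and in 21.3% of all 32851 windows. Both matches had 2 mismatches and lay on the strand opposite to the gene. The exact half-site was in 5 of the 9 windows and in 14% of all windows. The matched repeat of Plin2 holds an exact half-site. That of Cd36 does not, and the exact half-site of the Cd36 window lies upstream of the repeat, in lowercase. A match describes the letters only and is not evidence of binding. Each sequence is written 5′ to 3′ along the gene. Capitals mark the repeat for Cd36 (chr5:17835897-17836146, minus strand) and Plin2 (chr4:86670060-86670309, minus strand), and the exact half-site for Pparg (chr6:115360894-115361143, plus strand), where no repeat was found within the limit.
Cd36: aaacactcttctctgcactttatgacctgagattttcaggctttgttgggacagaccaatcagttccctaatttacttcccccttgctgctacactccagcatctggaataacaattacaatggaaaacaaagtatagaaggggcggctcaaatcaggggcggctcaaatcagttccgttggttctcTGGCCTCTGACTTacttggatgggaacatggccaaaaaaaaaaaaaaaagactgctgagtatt
Plin2: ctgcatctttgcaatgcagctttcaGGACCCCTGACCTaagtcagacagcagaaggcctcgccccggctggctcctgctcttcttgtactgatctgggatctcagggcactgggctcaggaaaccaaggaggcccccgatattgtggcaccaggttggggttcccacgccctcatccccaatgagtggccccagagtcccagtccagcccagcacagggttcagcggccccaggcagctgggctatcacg
Pparg: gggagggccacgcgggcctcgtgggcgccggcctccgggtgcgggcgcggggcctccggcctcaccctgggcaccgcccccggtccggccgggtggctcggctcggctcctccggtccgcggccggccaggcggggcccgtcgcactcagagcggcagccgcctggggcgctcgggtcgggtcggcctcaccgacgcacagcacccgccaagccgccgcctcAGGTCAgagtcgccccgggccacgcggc

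The receptor Pparg was at 20.3 and 21.7 CPM in the WT libraries and at 11.9 and 12.1 CPM in the anti-Act1 libraries. Both anti-Act1 libraries lay below both WT libraries, and the replicates of each group were close together. The log2 fold change was −0.81 (standard error 0.09, adjusted p = 2.16e-10 by edgeR), with a 95% interval from −0.98 to −0.64. Over 13 alternative analyses the log2 fold change of Pparg lay between −0.85 and −0.74, always past the threshold. The 3 annotated starts of Pparg that make its isoforms share most of their exons, and the counts per gene do not separate them.

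The other receptors of the family and the RXR partners moved less. Ppard, the receptor PPARδ, was at 37.5 and 35.2 CPM in the WT libraries and at 40.9 and 43.9 CPM in the anti-Act1 libraries, a log2 fold change of 0.22 (standard error 0.07, adjusted p = 0.0102 by edgeR). This rise of Ppard lost its call in 5 of 13 alternatives, among them those without WT replicate 2 (0.18) and without anti-Act1 replicate 2 (0.17). Rxra, the main RXR gene of macrophages, was at 155 and 151 CPM in the WT libraries and at 132 and 133 CPM in the anti-Act1 libraries, a log2 fold change of −0.21 (standard error 0.05, adjusted p = 0.00259 by edgeR). The call of Rxra was lost without anti-Act1 replicate 1 (−0.20). Rxrb was at 58.8 and 57.8 CPM on average and its libraries overlapped. Ppara had at most 2 counts in any library and Rxrg had 0 counts in all. Per gene length, in the FPKM deposited by the authors, Pparg and Ppard were close in the WT libraries, at 10.8 ± 0.525 and 11.4 ± 0.474 FPKM (SD, n = 2). In the anti-Act1 libraries they stood apart, at 6.04 ± 0.0132 and 13.1 ± 0.527 FPKM. Of 14 tested genes for receptors and coregulators other than Pparg, 1 was higher (Ppard) and 3 were lower at an adjusted p under 0.05 (Rxra and the coactivators Ep300 and Ncoa1), with a median log2 fold change of −0.07. Ep300 and Ncoa1 lost their calls in 6 and 8 of 13 alternatives. The list held 0 higher genes without WT replicate 2 or anti-Act1 replicate 2, and it held 1 lower gene without either of these and 0 without anti-Act1 replicate 1. The corepressor gene Ncor1 had a log2 fold change of −0.062, with adjusted p = 0.459 by edgeR.

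**Figure D1:**
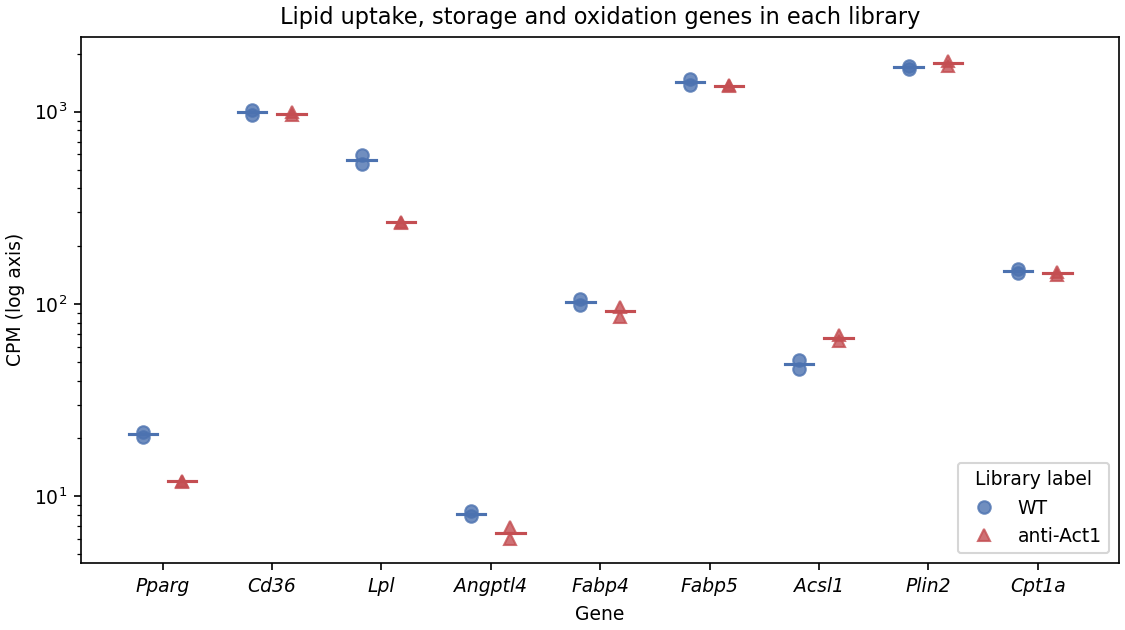
CPM (log axis) of the 9 tested genes in each library, with WT libraries as circles, anti-Act1 libraries as triangles and a horizontal bar for the mean of each group. The groups are well apart for Pparg, Lpl and Acsl1, while those of Cd36, Fabp5, Plin2 and Cpt1a overlap.

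Among the genes of uptake, Lpl showed the largest change of the 9 tested genes. LPL is the secreted enzyme that frees fatty acids from the triglyceride of lipoproteins. Lpl was at 532 and 592 CPM in the WT libraries and at 268 and 265 CPM in the anti-Act1 libraries. Both anti-Act1 libraries lay below both WT libraries, and the gap was several times the spread within either group. The log2 fold change was −1.08 (standard error 0.05, adjusted p = 1.87e-21 by edgeR), with a 95% interval from −1.18 to −0.97. It lay between −1.15 and −0.998 over 13 alternatives. A fall of at least 0.9 on the log2 scale that passed the test was found in 0.856% of all genes tested.

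Cd36, the receptor that brings long-chain fatty acids and oxidized lipoproteins into macrophages, was at 966 and 1018 CPM in the WT libraries and at 992 and 959 CPM in the anti-Act1 libraries. The libraries of the groups overlapped, and the log2 fold change was −0.025 (95% interval −0.13 to 0.08, adjusted p = 0.792 by edgeR). Its sign turned when WT replicate 2 or anti-Act1 replicate 2 was left out. Angptl4, a secreted inhibitor of LPL, was at 7.86 and 8.41 CPM in the WT libraries and at 6.93 and 6.01 CPM in the anti-Act1 libraries. The groups did not overlap. Of the 9 genes, 4 were lower and 1 was higher without overlap, beside 28.7% and 28.4% of all genes tested. The log2 fold change of Angptl4 was −0.33 (standard error 0.12), and its edgeR adjusted p of 0.0519 missed the threshold, which 7 of 13 alternatives passed. It lay between −0.44 without anti-Act1 replicate 1 and −0.23 over the libraries left out.

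Of the fatty acid-binding proteins, which carry fatty acids through the cytoplasm, Fabp5 was the most abundant of the 10 genes per gene length. Fabp5 was at 1477 and 1373 CPM in the WT libraries and at 1376 and 1357 CPM in the anti-Act1 libraries. The libraries overlapped, with a log2 fold change of −0.060 (95% interval −0.16 to 0.04, adjusted p = 0.454 by edgeR). Fabp4, a classical PPARγ target in adipocytes and macrophages, was at 106 and 99.2 CPM in the WT libraries and at 86.1 and 96.8 CPM in the anti-Act1 libraries. The groups did not overlap, but anti-Act1 replicate 2 was close to WT replicate 2. The log2 fold change of Fabp4 was −0.16 (standard error 0.06, adjusted p = 0.0342 by edgeR). It lost its call in 5 of 13 alternatives, among them DESeq2 (adjusted p = 0.0840), and was −0.12 without WT replicate 1 and −0.079 without anti-Act1 replicate 1. Fabp3 was at 1.18 and 1.65 CPM in the WT libraries and at 0.939 and 1.04 CPM in the anti-Act1 libraries (log2 fold change −0.52, adjusted p = 0.237 by edgeR). It was −0.73 when WT replicate 1 was left out and −0.25 when WT replicate 2 was.

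Acsl1, which joins long-chain fatty acids to coenzyme A, was the only one of the 9 genes that was higher past the threshold. It was at 46.0 and 51.3 CPM in the WT libraries and at 64.1 and 68.8 CPM in the anti-Act1 libraries. Both anti-Act1 libraries lay above both WT libraries, with a log2 fold change of 0.45 (standard error 0.06, adjusted p = 1.68e-07 by edgeR) and a 95% interval from 0.32 to 0.57. It lay between 0.37 and 0.53 over 13 alternatives, always past the threshold. Among its paralogs, Acsl4, which prefers arachidonic acid, was at 116 and 130 CPM in the WT libraries and at 142 CPM in both anti-Act1 libraries (log2 fold change 0.21, adjusted p = 0.00401 by edgeR), a call lost in 4 of 13 alternatives, among them that without WT replicate 1 (0.13). Acsl3 and Acsl5 had log2 fold changes of 0.031 and −0.032, with overlapping libraries, and Acsl6 had 0 counts in all. Acsl5 remained the most abundant of the family per gene length, at 48.3 ± 1.90 FPKM in the WT libraries and 46.4 ± 1.07 FPKM in the anti-Act1 libraries (SD, n = 2).

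Plin2, the perilipin that coats the lipid droplets of macrophages, was at 1734 and 1673 CPM in the WT libraries and at 1726 and 1843 CPM in the anti-Act1 libraries. The libraries overlapped, with a log2 fold change of 0.067 (95% interval −0.03 to 0.17, adjusted p = 0.391 by edgeR). Plin3, a perilipin found on small droplets, was at 126 and 124 CPM in the WT libraries and at 141 CPM in both anti-Act1 libraries. Its log2 fold change was 0.18 (standard error 0.05, adjusted p = 0.0107 by edgeR), a call lost in 3 of 13 alternatives, among them those without either anti-Act1 library (both 0.18). The adipocyte perilipin Plin1 and the oxidative tissue perilipin Plin5 had 0 counts in all libraries, and Plin4 had at most 5.

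Cpt1a, which makes the acylcarnitines that enter mitochondria, was at 145 and 152 CPM in the WT libraries and at 142 and 148 CPM in the anti-Act1 libraries. The libraries overlapped, with a log2 fold change of −0.038 (95% interval −0.14 to 0.07, adjusted p = 0.687 by edgeR). Pdk4, a kinase that shuts off pyruvate dehydrogenase and is a strong PPAR target in muscle and liver, had 0 counts in both WT libraries and 2 and 0 counts in the anti-Act1 libraries. Pdk4 did not pass the filter on low counts and was not tested. All 4 values were within the limit of 3 counts, so its difference was not detectable at this depth. Of the other kinases, Pdk1 was at 224 and 229 CPM in the WT libraries and at 245 and 243 CPM in the anti-Act1 libraries (log2 fold change 0.11, adjusted p = 0.117 by edgeR). Pdk3 was at 14.1 and 14.6 CPM in the WT libraries and at 17.6 and 17.2 CPM in the anti-Act1 libraries (log2 fold change 0.28, adjusted p = 0.0151 by edgeR), and its call was lost in 5 of 13 alternatives, among them those without WT replicate 1 (0.25), anti-Act1 replicate 1 (0.26) or anti-Act1 replicate 2 (0.30).

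**Figure D2:**
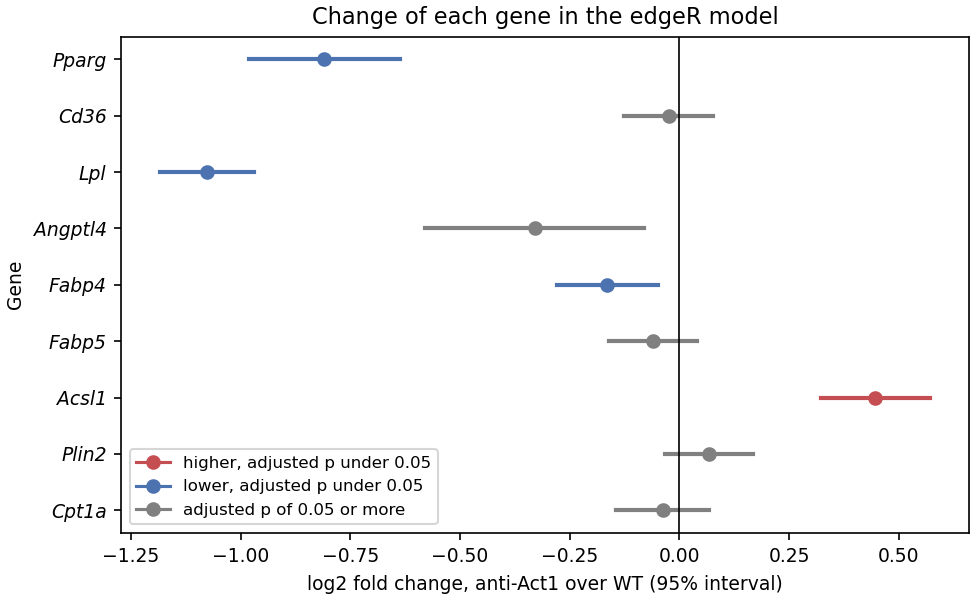
Log2 fold change (anti-Act1 over WT) of each tested gene in the edgeR model, with its 95% interval from the standard error and a t quantile. The intervals of Cd36, Fabp5, Plin2 and Cpt1a cover 0, that of Lpl ends at −0.97, and Angptl4, whose unadjusted interval ends at −0.08, missed the threshold after adjustment.

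Per gene length, the WT order was Fabp5 at 1608 FPKM, Plin2 at 1221, Cd36 at 327, Fabp4 at 174, Lpl at 140, Cpt1a at 34.5, Acsl1 at 12.4, Pparg at 10.8, Angptl4 at 4.31 and Pdk4 listed at 0. The anti-Act1 order was the same, and no neighbouring pair overlapped between libraries of one group except that Pdk4 stayed at or near 0. Fabp4 and Lpl went from 174 ± 7.29 and 140 ± 11.05 FPKM in the WT libraries to 152 ± 11.3 and 65.2 ± 1.13 FPKM in the anti-Act1 libraries (SD, n = 2). Fabp5 was between rank 20 and rank 26 of all genes by FPKM in the 4 libraries, and Plin2 was between rank 27 and rank 30. Pparg was between rank 5471 and rank 5658 in the WT libraries and between rank 7150 and rank 7225 in the anti-Act1 libraries. Together the 10 genes took 0.507% and 0.504% of all counts in the WT libraries and 0.466% and 0.468% in the anti-Act1 libraries.

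**Figure D3:**
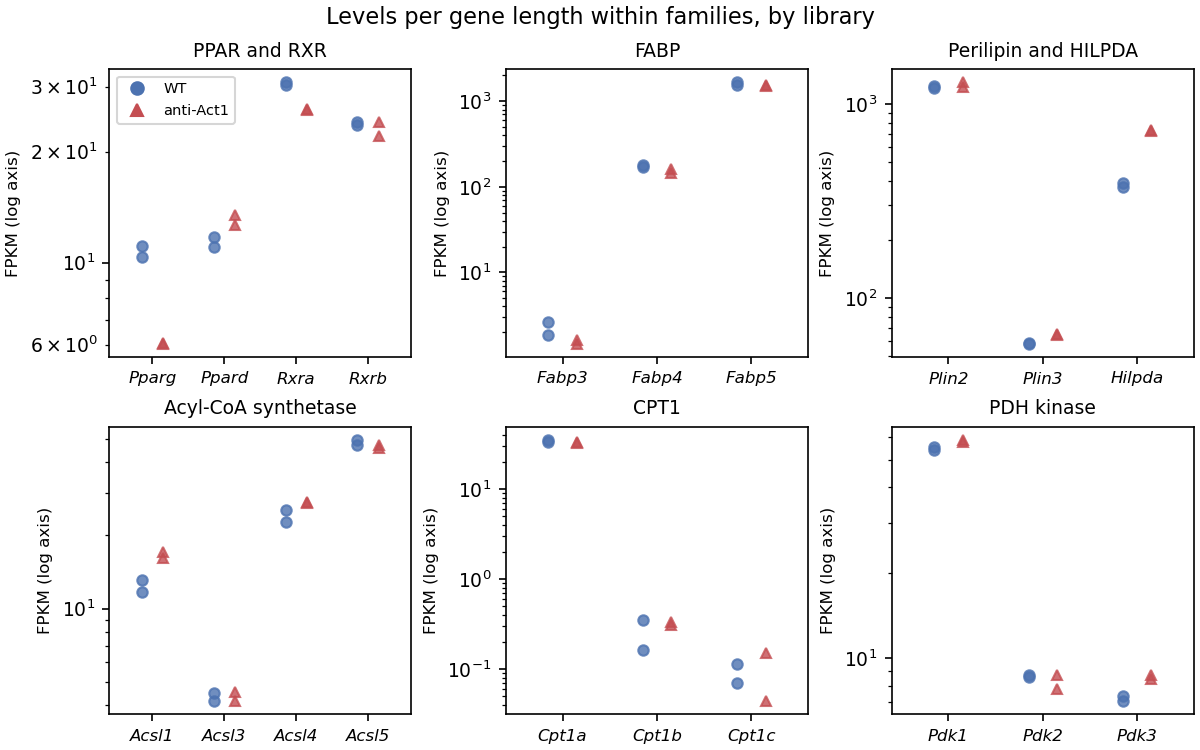
FPKM (log axis) of the families of the listed genes in each library, with WT libraries as circles and anti-Act1 libraries as triangles. Pparg drops from beside Ppard to below it, Hilpda moves from 381 to 727 FPKM on average, and Cpt1b and Cpt1c lie far below Cpt1a.

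The genes around the 10 were taken from 8 lists of fatty acid handling, which hold 162 further genes, 136 of them tested. Past the threshold, 23 were higher and 13 were lower, or 26.5% in all, beside 20.7% of all genes tested. Their median log2 fold change was 0.018. The counts rested in part on single libraries, with 15 higher and 5 lower when anti-Act1 replicate 1 was left out and 10 higher and 9 lower when anti-Act1 replicate 2 was. The share of all genes called fell in the same fits, to 7.57% higher and 5.79% lower and to 7.25% higher and 5.78% lower. Among the 26 genes named by the rule of size, 7 kept their call in every alternative that gave a value, and none of the 26 changed sign. These 7 were Hilpda, Vldlr, Cav1, Acacb, Scd2, Acot1 and Cyp27a1.

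In the uptake and binding list, 5 of 13 tested genes were higher and 1 was lower, with a median log2 fold change of 0.08. Vldlr, the receptor of triglyceride-rich lipoproteins, was at 8.27 and 8.43 CPM in the WT libraries and at 18.7 and 18.8 CPM in the anti-Act1 libraries. It was thus 2.24-fold higher (log2 fold change 1.17, standard error 0.09, adjusted p = 5.02e-14 by edgeR), in the direction opposite to Lpl. Cav1, the caveolae protein caveolin-1, was at 20.2 and 21.4 CPM in the WT libraries and at 45.4 and 45.1 CPM in the anti-Act1 libraries (log2 fold change 1.12, adjusted p = 4.21e-18 by edgeR). Gpr84, a receptor for medium-chain fatty acids, had a log2 fold change of 0.83 at 1.18 and 2.11 CPM on average. Dbi, the acyl-CoA-binding protein, and the transporter Slc27a4 had log2 fold changes of 0.24 each. Lipa, the lysosomal acid lipase that frees fatty acids from engulfed lipoproteins, was the gene that fell, from 730.2 ± 42.6 to 638 ± 2.63 CPM (SD, n = 2). Gpr84 lost its call in 4 of 11 alternatives, among them DESeq2 and those without WT replicate 1 (0.66) or anti-Act1 replicate 2 (0.58). Dbi lost its call in 2 of 13, among them that without anti-Act1 replicate 1 (0.19). The list held 3 higher genes without anti-Act1 replicate 2, and 3 lower genes without WT replicate 1 against 0 without WT replicate 2. The endothelial LPL anchor gene Gpihbp1 had 0 counts in all libraries.

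In the lipid droplet list, 4 of 14 tested genes were higher and 0 were lower, with a median log2 fold change of 0.06. Hilpda, a droplet protein known to inhibit the lipase ATGL and to be induced by hypoxia and fatty acids, was at 371 and 349 CPM in the WT libraries and at 700.0 and 698 CPM in the anti-Act1 libraries. Its anti-Act1 libraries were nearly equal and far above both WT libraries, a log2 fold change of 0.96 (standard error 0.05, adjusted p = 3.04e-20 by edgeR). A rise of at least 0.9 on the log2 scale that passed the test was found in 1.58% of all genes tested. Plin3, the monoglyceride lipase gene Mgll and the seipin gene Bscl2 had log2 fold changes of 0.18, 0.21 and 0.18. Mgll lost its call in 5 of 13 alternatives, among them those that left out WT replicate 2 (0.20), anti-Act1 replicate 1 (0.21) or anti-Act1 replicate 2 (0.22). Bscl2 lost its call in 4 of 13, among them that without anti-Act1 replicate 2 (0.12). Pnpla2, the gene of ATGL itself, had a log2 fold change of −0.017, and its activator Abhd5 of 0.083, with adjusted p = 0.867 and 0.365 by edgeR. The number higher in this list fell to 2 when anti-Act1 replicate 1 was left out and to 1 when anti-Act1 replicate 2 was, and leaving out WT replicate 1 gave 1 lower gene. Cidea and Cidec, which fuse droplets in adipocytes, were at 0 counts in all libraries.

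In the list of fatty acid activation and triglyceride synthesis, 3 of 21 tested genes were higher and 2 were lower, with a median log2 fold change of 0.07. The fall of Acot1, a cytosolic acyl-CoA thioesterase and known PPAR target, was the largest of this list, with 4.30 and 3.53 CPM in the WT libraries and 2.32 and 2.31 CPM in the anti-Act1 libraries (log2 fold change −0.76, adjusted p = 0.00135 by edgeR). Acss2, which makes acetyl-CoA from acetate, also fell, by 0.42 on the log2 scale. Gpam and Agpat1, which add the acyl chains in the first steps of glycerolipid synthesis, and Acsl4 had log2 fold changes of 0.24, 0.17 and 0.21. Gpam lost its call in 8 of 13 alternatives, among them DESeq2, library totals only and those that left out WT replicate 2 (0.17), anti-Act1 replicate 1 (0.23) or anti-Act1 replicate 2 (0.25). Acsl4 lost its call when WT replicate 1 was left out (0.13). Dgat1, the last step of triglyceride synthesis, had a log2 fold change of −0.032, and Dgat2 was at 1.03 and 1.61 CPM on average (adjusted p = 0.818 and 0.110 by edgeR). Acss2 lost its call in 5 of 13 alternatives. Among these were DESeq2 and the fits without WT replicate 1 (−0.44), WT replicate 2 (−0.41) or anti-Act1 replicate 1 (−0.24). The number lower in this list lay between 1 and 2 over all alternatives. Without WT replicate 2 or either anti-Act1 library, 1 gene was higher. Acot1 has close paralogs, between which the counting could have split reads.

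In the mitochondrial oxidation list, 5 of 27 tested genes were higher and 4 were lower, with a median log2 fold change of −0.0096. By edgeR the list held the largest rise of all 8 lists, that of Acacb, whose product ACC2 makes malonyl-CoA, the inhibitor of CPT1, and so opposes oxidation. Acacb was at 0.557 and 0.540 CPM in the WT libraries and at 2.25 and 2.27 CPM in the anti-Act1 libraries, a log2 fold change of 2.04 (standard error 0.29, adjusted p = 2.69e-07 by edgeR). On the log2(FPKM + 1) scale without a filter its change was 0.24, below those of Cav1, Hilpda (0.93) and Vldlr (0.69), since its FPKM lay between 0.063 and 0.26, far below the pseudocount of 1. Hadha, a subunit of the trifunctional enzyme of β-oxidation, was at 103 and 88.6 CPM on average (log2 fold change −0.22, adjusted p = 0.00266 by edgeR), while its partner Hadhb had −0.016 (adjusted p = 0.898 by edgeR). The dehydrogenases of the first step differed in direction, with a log2 fold change of 0.22 for Acadl and 0.42 for Acad10 and of −0.16 for Acadm. Acsf2, an acyl-CoA synthetase, had −0.37, the carrier gene Ucp2, whose product does not oxidize fatty acids, −0.19, and Eci1 and Etfb 0.27 and 0.20. Acad10 lost its call in 6 of 13 alternatives, among them DESeq2 and those that left out WT replicate 1 (0.31) or anti-Act1 replicate 2 (0.23). Eci1 also lost its call in 6 of 13, among them DESeq2 and those that left out WT replicate 1 (0.18), anti-Act1 replicate 1 (0.27) or anti-Act1 replicate 2 (0.27). The number higher was 2 when WT replicate 1 was left out, 3 when anti-Act1 replicate 1 was (with 1 lower), and 1 when anti-Act1 replicate 2 was. In the peroxisomal list, 1 of 19 tested genes passed the test, Crot, which exports shortened acyl groups as carnitine esters, with a log2 fold change of −0.23 (adjusted p = 0.00808 by edgeR). In the list of pyruvate dehydrogenase and its regulators, Pdk3 was the 1 gene of 11 that passed. Of the 4 fits with a library left out, Pdk3 passed only in that without WT replicate 2. Crot lost its call without anti-Act1 replicate 2 (−0.19). The peroxisomal list held 1 higher gene when WT replicate 2 or anti-Act1 replicate 1 was left out. The medians of the peroxisomal and pyruvate dehydrogenase lists were −0.0091 and 0.042.

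Of 17 other PPAR target genes tested, 4 were higher and 2 were lower, with a median log2 fold change of 0.05. Scd2, a stearoyl-CoA desaturase, was at 406 and 419 CPM in the WT libraries and at 707 and 709.7 CPM in the anti-Act1 libraries (log2 fold change 0.78, standard error 0.05, adjusted p = 3.17e-17 by edgeR). Its paralog Scd1, at 3.59 and 5.30 CPM on average, had a log2 fold change of 0.56 (adjusted p = 0.00521 by edgeR), and reads could have been shared between these similar genes. Txnip and Creg1 had log2 fold changes of 0.29 and 0.20. Cyp27a1, a sterol 27-hydroxylase regulated by PPARγ and RXR in macrophages, was at 52.9 and 53.3 CPM in the WT libraries and at 39.5 and 39.6 CPM in the anti-Act1 libraries (log2 fold change −0.43, adjusted p = 4.28e-07 by edgeR). Gk, the glycerol kinase gene, had −0.34. Scd1 lost its call without WT replicate 1 (0.46) or anti-Act1 replicate 1 (0.47), and Gk without WT replicate 2 (−0.24) or anti-Act1 replicate 1 (−0.29), which left 1 lower gene in the list in the last case. Me1 was at 0.213 and 0.338 CPM on average and Ucp3 at 0.336 and 0.240, and Pck1 and Fgf21, PPAR targets of the liver, had 0 counts in all libraries. The targets thus included genes that fell with Pparg, genes that rose and genes that did not pass the test.

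**Figure D4:**
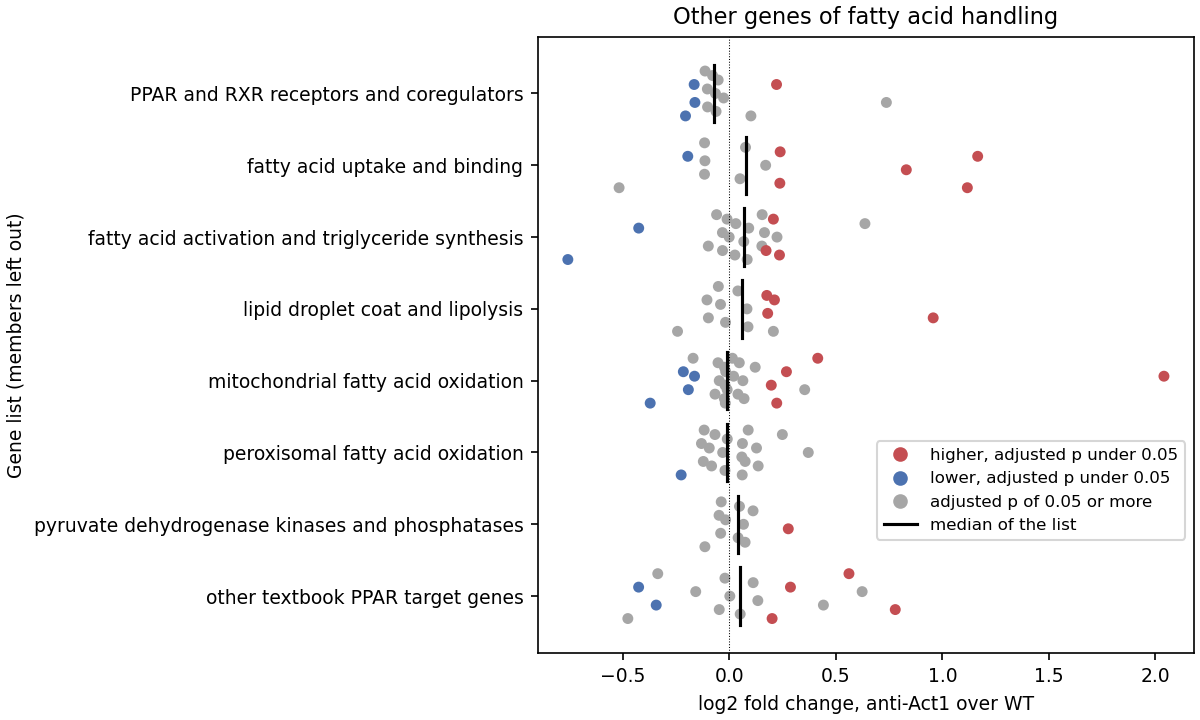
Log2 fold change (anti-Act1 over WT) of each tested gene in the 8 lists without the 10 listed genes, with a black bar at the median of each list. Most genes lie near 0, the medians lie between −0.07 and 0.08, and single genes such as Acacb at 2.04, Vldlr at 1.17 and Hilpda at 0.96 stand far to the right.

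By their values in the 4 libraries, the genes most like Pparg among 8405 tested genes of at least 10 CPM were Pdgfc, Sorl1, Slc9a9, Trf and Dab2. Likeness was the Euclidean distance between log2(CPM + 0.5) values after subtracting the mean of each gene, and it ranged from 0.034 for Pdgfc to 0.11 for Dab2. Pdgfc, a growth factor, was at 14.3 and 15.4 CPM in the WT libraries and at 8.47 and 8.31 CPM in the anti-Act1 libraries. Trf, the gene of the iron carrier transferrin, was the most abundant of the 5, at 1960 and 1913 CPM in the WT libraries and at 1130.3 and 1183 CPM in the anti-Act1 libraries. With only 4 libraries in 2 groups, the measure mostly finds genes with a fall of similar size.

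Markers of the cell types that such a culture could hold were compared beside these results. The 10 macrophage markers summed to 26466 and 25502 CPM in the WT libraries and to 26424 and 27250 CPM in the anti-Act1 libraries, led by Lyz2. Among them, Cd14 was higher, with a log2 fold change of 0.16, and Itgam and Mertk were lower, with −0.31 and −0.40. Adipocytes, which express most of the listed lipid genes, had defining markers at or near 0. Adipoq, Lep, Plin1, Cidec and Pck1 had 0 counts in every library. The 10 adipocyte markers summed to 0.232 and 0.369 CPM in the WT libraries and to 0.502 and 0.458 CPM in the anti-Act1 libraries. They were led by Retn in the mean over all libraries, but Aqp7 was above it in WT replicate 1 and anti-Act1 replicate 2. Epithelial markers summed to between 0.330 and 0.898 CPM, led by Vil1 in the mean over all libraries. Cdh1 was above Vil1 in both WT libraries. Krt8, Krt18, Krt20, Cldn3 and Cldn4 had 0 counts in every library. Fibroblast and marrow stroma markers summed to between 1.74 and 2.85 CPM, led by Pdgfrb, with Lum at 0. Dendritic cell markers summed to between 5.41 and 6.69 CPM, led by Clec9a, with Cd209a at 0.

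Other marker lists were led by a single gene each, and their levels were given without a cell type being named from them. Neutrophil markers summed to 527 and 540.4 CPM in the WT libraries and to 549 and 532 CPM in the anti-Act1 libraries, of which Mmp8 alone made up 519 to 541 CPM. Of the 7 tested, S100a8 was higher and S100a9, Ltf and Ngp were lower, of which S100a8 was the most abundant, at 3.67 and 5.82 CPM on average. Endothelial markers summed to between 107 and 114 CPM, led by Vwf, with 0 of 4 tested genes past the threshold and Emcn at 0. Osteoclast markers, several of which macrophages also express, summed to between 1083 and 1145 CPM, led by Atp6v0d2, with Calcr at 0. Ctsk, Acp5 and Mmp9 were higher, with log2 fold changes of 0.42, 0.43 and 0.96, and Dcstamp and Atp6v0d2 were lower, with −1.26 and −0.23. Ddx3y, Eif2s3y, Uty and Kdm5d of the Y chromosome were all lower and summed to 228 and 246 CPM in the WT libraries, against 1 count in all in the anti-Act1 libraries. The part of these differences in the changes of Pparg, Lpl and Acsl1 was not tested.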

How the data were processed

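Counts and FPKM of 4 libraries were used. The authors filtered out adapter-bearing and poor reads, aligned the pairs with TopHat and deposited the reads per gene as raw counts. The submitters' processing notes also name HTSeq 0.6.1, Bowtie 0.12.2, mm8 and mm10 without a role, and the annotation is not given in the sources used here. The deposited FPKM equal the counts divided by a gene length and the library total.

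Counts were compared in R 4.3.3 by edgeR 4.0.16 after TMM scaling and filterByExpr (12494 of 21878 genes), condition only, the quasi-likelihood test and Benjamini-Hochberg adjustment. Standard errors were the log2 fold change over the root of F. Alternatives were DESeq2 1.42.0, its size factors in edgeR, library totals only, no filter, a minimum of 10 counts per library, the replicate block, limma 3.58.1 with a trend on log2(FPKM + 1) or log2(FPKM + 0.1) (FPKM of at least 1 in 2 libraries), log2(FPKM + 1) with all genes, and leaving out libraries singly. The edgeR, DESeq2 and limma fits were tested on simulated data.

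The genes named were the 10 listed, Traf3ip2, Y-linked genes, PPAR and RXR genes, paralogs and, per list, the 4 largest changes past the threshold of genes averaging 1 CPM or more whose groups did not overlap. For likeness to Pparg the 5 nearest genes were named, and per marker list the most abundant gene by the mean over all libraries and those at 0. Other genes of the lists, such as Ncor1, Pnpla2, Abhd5, Dgat1, Dgat2, Hadhb, Lipa, Slc27a4 and the markers past the threshold, lie outside this rule and were chosen after their values were seen. Some genes of the lists are not reported here. Genes and lists were chosen with earlier results of these data known. The replicate numbers are not said in the labels to mark shared animals, and same-numbered libraries did not deviate together (correlation −0.030 over 12494 genes), so they were not treated as pairs.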

Additional observations from a re-analysis of the deposited data

How the results depend on the processing

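Pparg, Lpl and Acsl1 kept their direction and their call in all 13 alternatives, and Fabp5, Plin2 and Cpt1a kept their direction and stayed short of the threshold. Depth limits Pdk4 and other genes near 3 counts. Angptl4 passed the threshold with DESeq2 size factors (log2 fold change −0.33), library totals only (−0.35), no filter (−0.33), log2(FPKM + 1) (−0.28) and log2(FPKM + 0.1) (−0.35), and lay between −0.44 and −0.23 over the libraries left out. With the replicate block Angptl4 was at −0.33 and past the threshold. This block changed no other call among the 9 tested genes and moved the count of all genes called from 2586 to 2406. Fabp4 lost its call with DESeq2 (−0.16), log2(FPKM + 0.1) (−0.19) and log2(FPKM + 1) without a filter (−0.19), and lay between −0.25 and −0.079 over the libraries left out. Cd36 lay between −0.063 and 0.013 over these. The median of the 9 genes lay between −0.11 and −0.064 over the libraries left out and between −0.11 and −0.048 over all alternatives.

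The count of list genes that were higher was 13 with log2(FPKM + 1), 14 with log2(FPKM + 0.1) and 6 without a filter on FPKM, and 4 were then lower. Leaving out a library gave 10 to 19 higher and 5 to 15 lower. All genes called higher numbered 908 with log2(FPKM + 0.1) and 582 without a filter on FPKM, where 509 were lower. Leaving out a library gave 741 to 1208 lower. Leaving out a library also turned the sign of Rxrb (−0.097 to 0.046), Acsl3 (−0.031 to 0.092), Acsl5 (−0.075 to 0.011), Cpt1b (−0.12 to 1.00), Cpt1c (−1.02 to 0.72) and Pdk2 (−0.13 to 0.054), none of which passed the test. The causes of these shifts were not tested.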
